A study of Bos taurus with 33 samples.

Results

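The genes described here encode the proteins that copy DNA and carry chromosomes through mitosis. They came from a list of 45 replication and mitosis genes, and each was represented by its brightest probe set on average across the 33 arrays. A probe set carrying a single symbol was found for 35 of the 45, out of 9155 genes named in this way. MCM2, NEK2, FOXM1, CDKN3, CENPE, KIF11, PRC1, RACGAP1, TOP2A and MKI67 were not analysed here. The 35 genes fall into 4 roles: 12 of S phase and replication, 7 cyclins, kinases and regulators of mitotic entry, 9 of the kinetochore, spindle checkpoint and anaphase, and 7 of the spindle, chromosomes and cytokinesis.

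In a dividing cell, cyclin E with CDK2 drives entry into S phase, the MCM helicase opens the DNA, and PCNA clamps the polymerases to it. Cyclins A and B with CDK1 then drive the cell into mitosis, where the spindle checkpoint holds back anaphase until every chromosome is attached and CDC20 and UBE2C help the anaphase-promoting complex destroy the cyclins. In the ruminant uterus, ovarian steroids regulate the division of epithelial and stromal cells, and before attachment the conceptus releases interferon tau, a type I interferon, into the uterine lumen.

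Endometrium was taken from Bavarian Simmental heifers whose cycles had been synchronised with cloprostenol, a prostaglandin analogue, and each animal gave 1 array. In the biopsy experiment, a lipid rod releasing human interferon alpha (IFNA, n = 3), the rod without interferon (placebo, n = 3) or phosphate-buffered saline (PBS, n = 3) was placed on day 14 in the horn beside the corpus luteum. About 6 biopsies per animal were taken there, after flushing, on day 16. In the slaughter experiment, inseminated heifers (pregnant, with 1 bull used throughout) and sham-inseminated heifers given sperm-free supernatant (cyclic) were killed on day 12 (n = 5 and 5), day 15 (n = 3 and 3) or day 18 (n = 4 and 4). Intercaruncular endometrium was taken from the distal part of the horn on day 12, the medial part on day 15 and the caudal part on day 18, so day and part of the horn cannot be told apart. The study asked how the endometrial response to early pregnancy compares with the response to an added type I interferon.

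Values are log2 levels per probe set, and differences are log2 differences ± standard error unless stated. A gene was called changed where limma's adjusted p was below 0.05 over 24016 probe sets. Array medians ran from 6.48 to 7.27 and separated the days, so days were compared after each array's median had been subtracted. The 3′ probe set of GAPDH, an RNA quality control, exceeded the 5′ one by 1.03 to 3.87 in the biopsies and by −0.16 to 0.56 at slaughter. Mean levels of the epithelial markers ran from 4.84 (KRT8, a keratin) to 12.46 (EPCAM, a surface protein). Those of the stromal markers ran from 11.06 (LUM) to 13.63 (DCN), and those of the trophoblast markers from 2.86 (PAG2) to 6.95 (TKDP1). The table carries no detection calls, so whether the dimmest probe sets lay above background is not known.

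Most of the 35 genes were dim in this tissue, with a median rank at the 26.4th percentile of all gene means and a range from the 3.7th to the 93.4th. The brightest was RRM1, the large subunit of ribonucleotide reductase, which makes the building blocks of DNA, at a mean of 10.77. MCM7 (9.40) and PCNA (9.35), both parts of the replication machinery, and CCNB1 (cyclin B1, 9.16) came next. The dimmest were the kinetochore gene NDC80 at 3.64, and the checkpoint kinases BUB1B at 4.09 and BUB1 at 4.16. CCNB2, encoding cyclin B2, lay at 4.53 and its relative CCNB1 near the top of the list. These are levels of different probe sets and order the probe signals only.

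**Figure D1:**
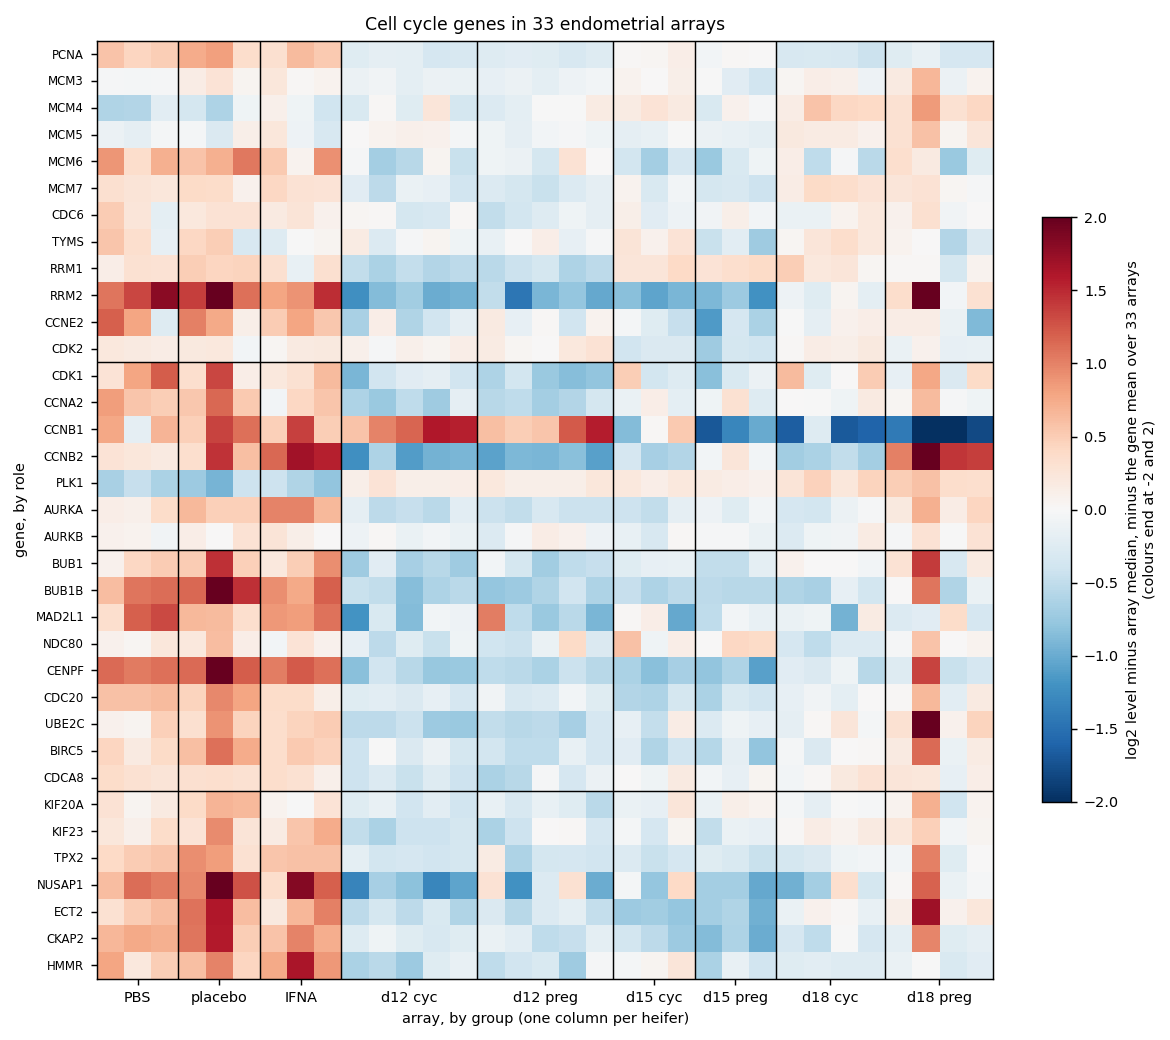
Level of each of the 35 genes (rows, by role: replication, mitotic entry, kinetochore, spindle) in each of 33 arrays (columns, by group), as log2 level minus the array median and minus the gene's mean over all arrays; red is higher and blue lower, with colours ending at −2 and 2. Pregnant day 18 animal 2 is red in most rows, CCNB1 turns from red on day 12 to blue on day 18, and CCNB2 is blue in every slaughter group but the pregnant group of day 18, apart from 1 array of pregnant day 15.

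On day 18, 5 of the 35 genes were called between pregnant and cyclic endometrium, and 1 of them differed by far the most. CCNB2, which activates CDK1 at the start of mitosis, was 4.42-fold higher in pregnant than in cyclic endometrium on day 18. AURKA, a kinase of centrosomes and spindle poles, and NDC80, which ties spindle fibres to the kinetochore, were also higher. TYMS, which makes thymidylate for DNA synthesis, and RRM1 were lower. The 3 of 35 genes higher (8.57%) and 2 lower (5.71%) stood beside 8.84% of all probe sets higher and 10.2% lower. The share called higher was thus near that of all probe sets. Leaving out 1 animal gave 3 called genes without cyclic animal 1, 2 or 3 or pregnant animal 4, and 8 without pregnant animal 3. In whole tissue, fewer cells of a type and less RNA per cell cannot be told apart.

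The CCNB2 level in the pregnant day 18 animals was 5.94, 7.28, 6.36 and 6.31, against 4.27, 4.32, 4.45 and 4.28 in the cyclic ones. All 4 pregnant animals lay above all 4 cyclic animals, with group means of 6.47 ± 0.57 and 4.33 ± 0.08 (SD, n = 4 each). The difference was 2.14 ± 0.18 (adjusted p = 1.89e-08). It stayed between 1.87 and 2.32, and past the threshold, when each animal was left out in turn.

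On day 15 CCNB2 measured 4.13, 4.44 and 4.15 in pregnant animals and 3.87, 3.55 and 3.60 in cyclic ones. The groups did not overlap, but the difference of 0.57 ± 0.21 missed the threshold (adjusted p = 0.134). On day 12 the 10 animals lay between 3.31 and 3.94, and the difference was 0.00 with a 95% interval from −0.34 to 0.35. The increase of the pregnancy effect on CCNB2 from day 15 to day 18 was itself past the threshold, at 1.58 ± 0.28 (adjusted p = 0.0137). That call was lost without cyclic day 15 animal 1 (1.48, adjusted p = 0.0729) and without pregnant day 15 animal 3 (1.53, adjusted p = 0.0640), and with only the groups compared in the fit (adjusted p = 0.1002). No other of the 35 genes passed in this test, in which 0.167% of all probe sets had a larger and 0.0416% a smaller effect on day 18. Between days 12 and 15, limma called a changed pregnancy effect for 0 of the 35 genes, beside 1.37% of probe sets with a larger and 0.62% with a smaller effect, and TYMS came nearest at −0.67 (adjusted p = 0.0704). Without pregnant day 15 animal 2, 1 gene was called there.

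AURKA measured 7.32, 7.86, 7.27 and 7.54 in pregnant day 18 animals and 6.81, 6.77, 7.02 and 7.12 in cyclic ones, again without overlap. Its difference was 0.57 ± 0.11 (adjusted p = 0.00113), and it ran from 0.45 to 0.64, past the threshold throughout, when each animal was left out in turn. A second, dimmer AURKA probe set (mean 3.93) had a difference of 0.47 and an adjusted p of 0.0853.

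NDC80 measured 4.03, 4.65, 4.05 and 4.11 in pregnant day 18 animals and 3.74, 3.55, 3.79 and 3.79 in cyclic ones. The groups did not overlap, and the difference of 0.49 ± 0.17 passed narrowly (adjusted p = 0.0489). Leaving out 1 animal ended this call in 7 of 8 fits, and without pregnant animal 2 the difference was 0.35 (adjusted p = 0.195).

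Among the S phase genes, TYMS was lower in pregnant endometrium on both later days at its brighter probe set. A second, dimmer TYMS probe set (mean 3.66) had differences of −0.09 on day 15 (adjusted p = 0.782) and 0.01 on day 18 (adjusted p = 0.983). On day 15 the brighter probe set measured 7.16, 7.42 and 6.92 in pregnant and 7.90, 7.73 and 7.90 in cyclic animals, so that every pregnant animal lay below every cyclic one. Its difference was −0.68 ± 0.15 (adjusted p = 0.00934), and TYMS was the only one of the 35 genes called on day 15, when 2.75% of all probe sets were higher and 2.32% lower. Without pregnant day 15 animal 3 it was −0.55 and missed the threshold (adjusted p = 0.0660) and no gene was called, while without cyclic day 15 animal 1, 2 genes were called.

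On day 18 TYMS measured 8.44, 8.41, 7.77 and 8.07 in pregnant and 8.43, 8.62, 8.74 and 8.59 in cyclic animals. The groups overlapped by 1 array, and the difference was −0.42 ± 0.13 (adjusted p = 0.0249). It missed the threshold without cyclic animal 2 or 3 or pregnant animal 3 or 4, with a smallest size of −0.29 (adjusted p = 0.113) without pregnant animal 3. It also missed with the mean over probe sets and with only the groups compared, which gave adjusted p up to 0.134. RRM1 measured 11.20, 11.23, 10.82 and 11.25 in pregnant and 11.69, 11.41, 11.44 and 11.23 in cyclic animals on day 18. Here pregnant animal 3 stood lowest and cyclic animal 1 highest, and the difference of −0.32 ± 0.09 (adjusted p = 0.0192) missed the threshold without either (adjusted p = 0.0879 and 0.0831).

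The remaining S phase genes did not pass on day 18. RRM2, the small subunit of ribonucleotide reductase, whose transcript is high in S phase, measured 5.59, 7.74, 5.17 and 5.54 in pregnant and 5.16, 5.00, 5.30 and 5.06 in cyclic animals. Pregnant animal 2 alone stood far above the rest, and the difference of 0.88 ± 0.34 had an adjusted p of 0.0765. The 5 measured MCM subunits had differences between −0.17 for MCM7 and 0.14 for MCM3, PCNA had 0.07 ± 0.06, and CDK2 had −0.23 (adjusted p = 0.0604).

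CCNB1 did not follow CCNB2. On day 15 it measured 7.12, 7.53 and 7.82 in pregnant and 7.98, 8.86 and 9.34 in cyclic animals, with no overlap and the pregnant animals lower. The difference was −1.24 ± 0.38 (adjusted p = 0.0636). On day 18 the pregnant animals had 8.16, 7.46, 7.54 and 7.76 and the cyclic ones 7.95, 9.32, 7.90 and 7.98, and the difference was −0.56 (adjusted p = 0.269). Of the other genes of mitotic entry on day 18, CDK1, the kinase that both cyclins bind, had a difference of −0.06, CCNA2 (cyclin A2) 0.10, PLK1 0.08 and AURKB 0.19, none past the threshold.

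On day 12 limma called 0 of the 35 genes, beside 0% of all probe sets higher and 0.00416% lower. At an unadjusted p below 0.05, 1 of the 35 differed: NUSAP1, which bundles spindle fibres, at 0.66 ± 0.31 (adjusted p = 0.753). The share of all probe sets at the unadjusted threshold was not counted. On day 15, arrays of the pregnant and cyclic groups did not overlap for 7 of the 35 genes in the lower direction, beside 12.7% of all probe sets, and for CCNB2 in the higher direction, beside 9.91%. The 7 were TYMS, CCNB1, HMMR, MCM3, MCM4, MCM7 and PCNA.

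Over all 35 genes, 23 differences were above 0 on day 12, 12 on day 15 and 27 on day 18. The median difference was 0.024 on day 12, −0.067 on day 15 and 0.13 on day 18, beside medians over all named genes of 0.00, −0.02 and −0.02. On day 18 the kinetochore and checkpoint genes had a median of 0.36 with 8 of 9 above 0, and the spindle genes 0.36 with 7 of 7 above 0. The S phase genes had a median of 0.07 with 7 of 12 above 0. Without pregnant animal 2, the median over the 35 genes on day 18 was 0.012, that of the kinetochore and checkpoint genes 0.13 with 7 of 9 above 0, that of the spindle genes 0.069 with 4 of 7, and that of the S phase genes −0.044 with 3 of 12.

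**Figure D2:**
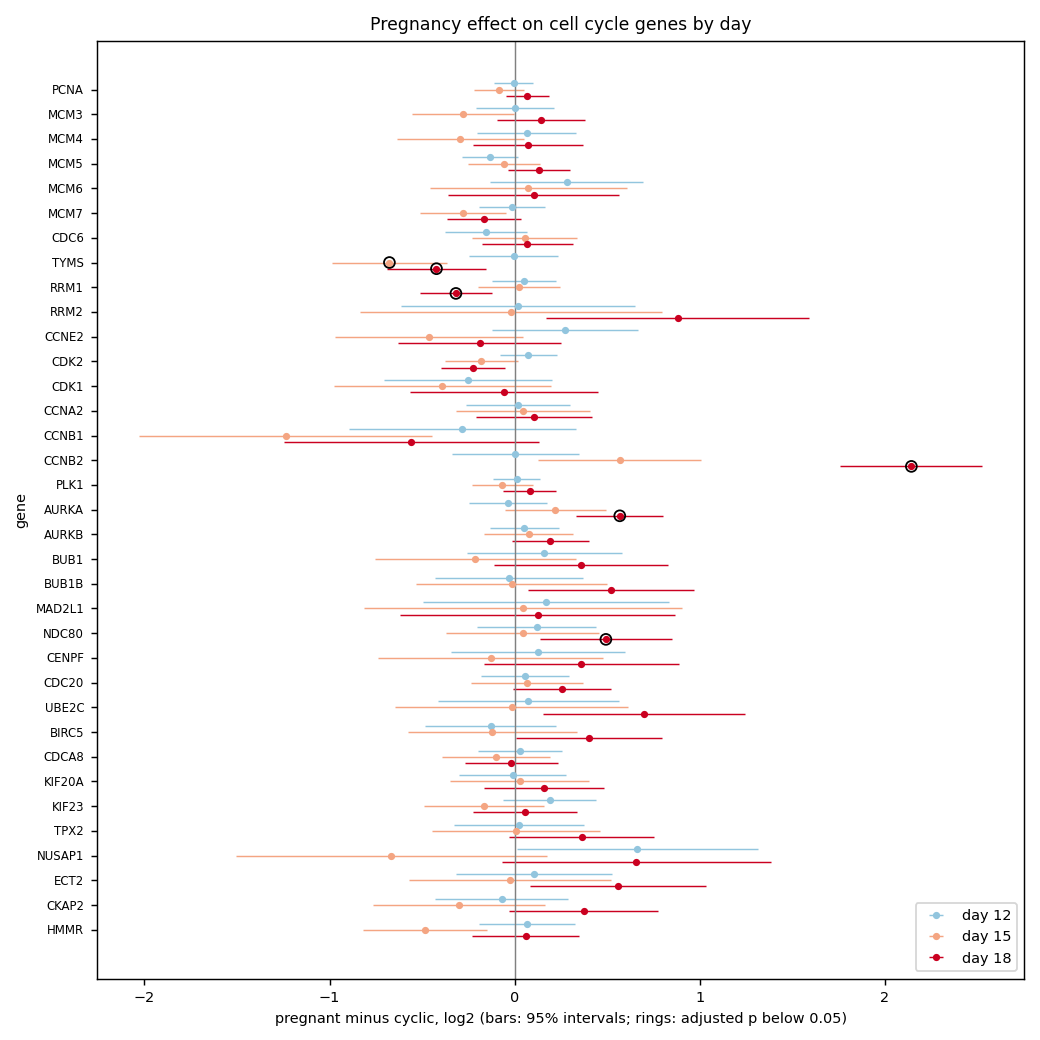
Pregnant minus cyclic difference (log2, horizontal axis) for each of the 35 genes on day 12, 15 and 18, with 95% intervals as bars and rings at adjusted p below 0.05. CCNB2 on day 18 lies at 2.14, apart from all other points, and CCNB1 on day 15 lies lowest at −1.24.

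One pregnant day 18 animal stood apart in these genes. In animal 2, 33 of the 35 genes were above the group mean, and 30 of 35 were the highest of the 4 animals, beside 2679 of 9155 for all genes. Its median excess over the other 3 animals was 0.55, beside 0.02 for all genes. By role the excess was 0.39 for S phase, 0.48 for mitotic entry, 1.09 for the kinetochore and checkpoint and 1.15 for the spindle.

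The excess was seen in genes of each mitotic step. UBE2C, the ubiquitin-conjugating enzyme of the anaphase-promoting complex, measured 7.58 in animal 2 against 5.81, 5.59 and 5.95 in the others. ECT2, which switches on the furrow of cytokinesis, measured 7.24 against 5.63, 5.59 and 5.73, and CENPF, a kinetochore protein of late G2 and mitosis, 6.64 against 5.00, 4.80 and 4.91. For UBE2C, ECT2 and CENPF the other 3 pregnant animals lay close together, well below animal 2. CCNB1 was an exception, at its lowest in animal 2. Animal 3 was the opposite case, with 2 of 35 genes above the group mean, beside 40.8% of all genes. Its median over the 35 genes was −0.39 against the other 3.

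In animal 2 the macrophage markers were also high, with all 5 measured markers the highest of the group and a median excess of 0.47, whereas the epithelial markers had a median of −0.13. Its GAPDH 3′ to 5′ difference was −0.01, within the group's −0.08 to 0.14. The part of these differences in the excess of the cell cycle genes was not tested.

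**Figure D3:**
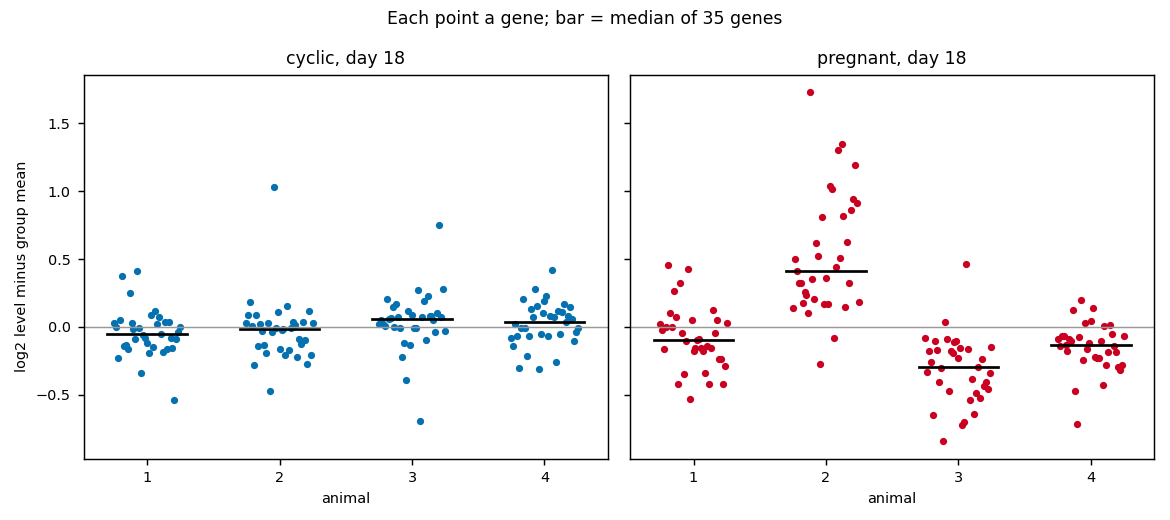
Log2 level minus the group mean for the 35 genes (points) in each cyclic and each pregnant animal of day 18, with the median as a bar. The 4 cyclic medians lie between −0.06 and 0.06, pregnant animal 2 lies at 0.41 and pregnant animal 3 at −0.29.

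Other cell cycle genes from separate lists were read on day 18 against the same shares of all probe sets, 8.84% higher and 10.2% lower. Of 41 further spindle and kinetochore genes, 3 were higher and 1 lower. The higher ones were MELK, a mitotic kinase (0.64 ± 0.21), CDC25C, the phosphatase that activates CDK1 (0.63 ± 0.12), and TACC3, a spindle protein (0.50 ± 0.12), and the lower one was H2AZ1, a histone variant (−0.29). Of 35 further replication genes, TK1, a thymidine kinase, was higher (0.46), and PRIM1, a primase subunit (−0.49), and POLD2, a polymerase subunit (−0.23), were lower. Of 13 G1 cyclins, kinases and E2F factors, 2 were higher, TFDP2 (0.32) and E2F4 (0.20), and CDK4, the G1 kinase, was lower (−0.24). CCND1 (−0.17), CCND2 (0.01) and MYC (0.23) did not pass.

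Among 13 cell cycle inhibitors, 1 was higher and 2 lower on day 18. GADD45B, a stress response gene, was higher by 0.88 ± 0.11, having been higher by 0.63 ± 0.13 on day 15. CDKN1C, an inhibitor of cyclin-dependent kinases, was lower (−0.56 ± 0.14), as was CCNG1 (−0.32), and CDKN1A, the p53-induced inhibitor, had 0.40 and did not pass. Of 14 growth signals and steroid receptors, AREG, an EGF receptor ligand (1.37 ± 0.33), and FGF10 (0.64) were higher, and ESR1, the oestrogen receptor (−0.70 ± 0.11), and MET (−0.41) were lower. PGR, the progesterone receptor (0.04), and IGF1 (−0.28) did not pass.

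On day 15, 1 of the further replication genes was higher (CDC7, the kinase that fires replication origins, 0.51) and 1 lower (POLD2, −0.32), H2AZ1 was lower (−0.41), and of the G1, growth and steroid receptor lists no gene was called, beside 2.75% of all probe sets higher and 2.32% lower. CDKN1A (0.62), CDKN1C (−0.49), CCND1 (−0.19), CCND2 (0.10), MYC (0.15), ESR1 (0.13), PGR (0.11) and IGF1 (0.10) did not pass on that day.

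Some cell type markers also differed between pregnant and cyclic endometrium on day 18, beside the same 8.84% of all probe sets higher and 10.2% lower. Of 5 macrophage markers, 3 were higher, with the summed level between 11.90 and 12.45 in pregnant and between 10.85 and 11.20 in cyclic animals. Of 5 neutrophil markers 2 were higher, and of 6 endothelial markers 4 were lower (summed level 10.77 to 11.04 against 11.11 to 11.65). Of 6 epithelial markers 2 were higher and 1 lower, of 6 stromal markers 1 was lower, of 5 B and plasma cell markers 1 was higher, and none of the T and NK cell, smooth muscle, erythrocyte or trophoblast markers was called. The summed trophoblast level was 8.13 to 8.28 in pregnant and 7.98 to 8.33 in cyclic animals. The part of these markers in the differences of the cell cycle genes was not tested.

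Interferon alpha, placebo and PBS did not separate these genes past the threshold. limma called 0 of 35 genes for IFNA against placebo (0.837% of all probe sets higher and 0.0291% lower), for IFNA against PBS (0.712% and 0.15%) and for placebo against PBS (0% and 0%). At an unadjusted p below 0.05 the counts were 6, 4 and 4, but the share of all probe sets at that threshold was not counted. The 3 comparisons share arrays with one another.

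CCNB2 and AURKA were the nearest to the threshold for IFNA against PBS. CCNB2 measured 5.51, 6.02 and 5.91 with IFNA, 4.66, 5.75 and 4.94 with placebo and 4.60, 4.56 and 4.57 with PBS. IFNA lay above PBS in all animals but overlapped placebo animal 2, and its difference was 1.24 ± 0.26 from PBS (adjusted p = 0.0868) and 0.70 ± 0.26 from placebo (adjusted p = 0.462). AURKA measured 7.53, 7.51 and 7.20 with IFNA, 7.16, 6.97 and 7.0 with placebo and 6.65, 6.63 and 6.94 with PBS. IFNA lay above both other groups in every animal, by 0.67 ± 0.13 over PBS (adjusted p = 0.0708) and by 0.37 ± 0.13 over placebo (adjusted p = 0.438). The dimmer AURKA probe set had 0.09 over PBS (adjusted p = 0.929) and 0.05 over placebo (adjusted p = 0.958). Against PBS, arrays did not overlap in the higher direction for 2 of 35 genes (CCNB2 and AURKA), beside 6.09% of all probe sets, and in the lower direction for 1 (CDC20), beside 8.47%.

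Several mitotic genes had lower means with IFNA than with placebo, none past the threshold. CDC20, the activator of the anaphase-promoting complex, differed by −0.42 ± 0.14, BUB1B by −0.69 ± 0.30, KIF20A, a motor of the dividing midzone, by −0.43 ± 0.13 and BIRC5 (survivin) by −0.35 ± 0.14. KIF20A (adjusted p = 0.292) and CDC20 (adjusted p = 0.390) were the nearest to the threshold in that comparison. Arrays with IFNA and placebo did not overlap in the lower direction for 4 of 35 genes (KIF20A, CDC20, BIRC5 and RRM1), beside 5.14% of all probe sets, and in the higher direction for 2 (AURKA and MAD2L1), beside 5.38%. The median over 35 genes was −0.12 for IFNA against placebo and 0.17 for placebo against PBS, with 28 of 35 genes above 0 in the latter, beside medians over all genes of −0.01 and 0.00. For placebo against PBS, 6 of 35 genes had no overlap in the higher direction (CCNB2, AURKA, BIRC5, KIF20A, MCM3 and RRM1), beside 2.8% of all probe sets, and 0 in the lower direction, beside 3.44%.

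Placebo animal 2 had 27 of 35 genes above its group mean, beside 48.2% of all genes, with a median excess of 0.32 over the other 2 animals. Without it the placebo minus PBS median was 0.058 and the IFNA minus placebo median −0.015. Its GAPDH 3′ to 5′ difference of 3.87 was the largest of all arrays. The part of this in its cell cycle values was not tested. CDKN1A (−0.04), CDKN1C (−0.04), CCND1 (−0.41), CCND2 (0.21), MYC (−0.47), ESR1 (−0.21), PGR (−0.05) and IGF1 (−0.40) did not pass for IFNA against placebo.

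The interferon effect over placebo was set against each day's pregnancy effect by an interaction term over all arrays. Against day 15, limma called 0 of the 35 genes (0.137% of all probe sets with a larger and 0.258% with a smaller effect). Against day 18, CCNB2 alone was called, with an effect smaller by 1.49 ± 0.31 with interferon (adjusted p = 0.0109), beside 0.279% of probe sets with a larger and 0.941% with a smaller effect. With only the groups compared in the fit, this call was lost (adjusted p = 0.231). RRM2 (−1.53, adjusted p = 0.173) and NDC80 (−0.72, adjusted p = 0.170) did not pass. This term spans biopsies of day 16 and slaughter tissue of day 18, which differ in collection and day. It takes placebo as the control, and no such term was run with PBS. Without placebo animal 1 or 3, or pregnant day 18 animal 1 or 3, the count against day 18 was 3, 2, 2 and 4.

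**Figure D4:**
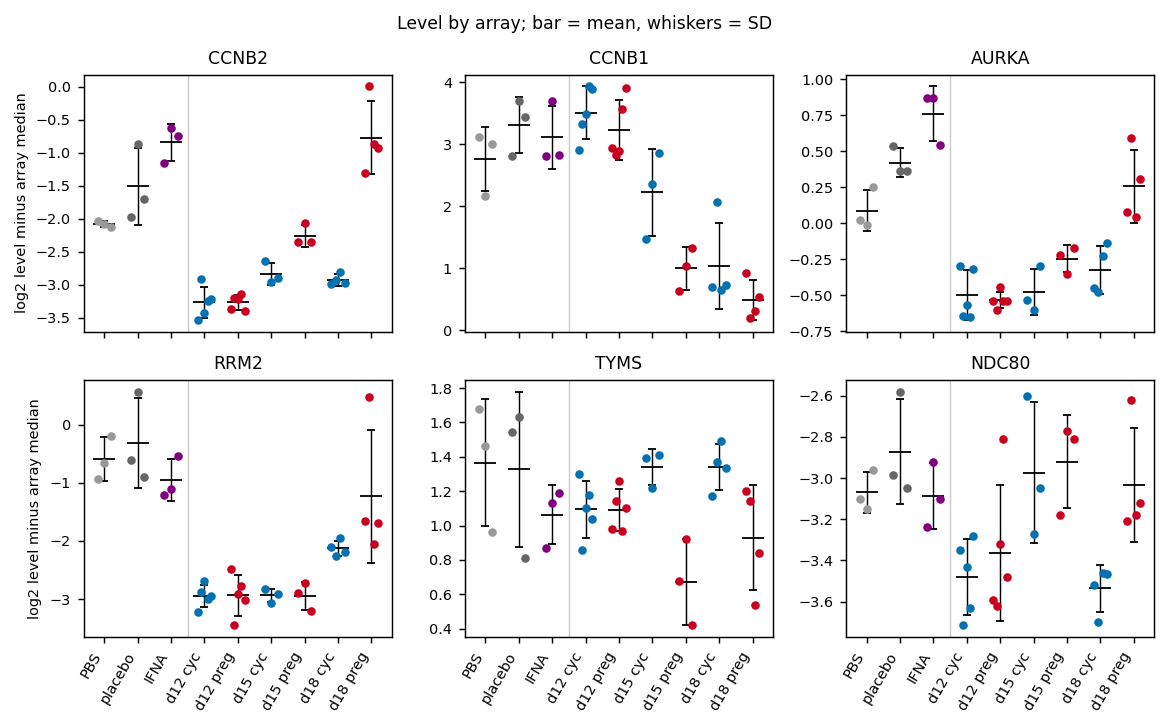
Log2 level minus the array median in each animal (points; bar, mean; whiskers, SD) for CCNB2, CCNB1, AURKA, RRM2, TYMS and NDC80, by group, with biopsies left of the grey line. CCNB2 is highest in pregnant day 18 animals and in IFNA biopsies and lower in PBS biopsies, with 1 placebo animal within the IFNA range. CCNB1 declines from day 12 to day 18 in both pregnant and cyclic groups, and 1 pregnant day 18 animal stands high for RRM2.

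Across days, the pregnant group of day 18 had the highest centred mean of the 6 slaughter groups for 23 of the 35 genes, and the lowest means were most often in cyclic day 12 (12 genes) and pregnant day 15 (11 genes). The same ranking was not counted over all genes, nor without pregnant day 18 animal 2. From day 15 to day 18 in pregnant animals, 20 of 35 genes rose and 2 fell, beside 18.5% of all probe sets higher and 33.7% lower. The median change was 0.45, beside −0.06 for all genes. From day 12 to day 18 in pregnant animals, 23 rose and 2 fell, beside 30.3% and 33.3%, with a median of 0.43 beside 0.00. Without pregnant day 18 animal 2 the counts were 16 higher and 2 lower against day 15, beside 4106 and 7484 of all probe sets. Against day 12 they were 18 higher and 2 lower, beside 6920 and 7426. Comparisons that use the same day share its arrays.

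By role, from day 15 to day 18 in pregnant animals, 6 of 12 S phase genes, 3 of 7 genes of mitotic entry, 6 of 9 kinetochore genes and 5 of 7 spindle genes rose. The largest rises were RRM2 (1.71 ± 0.36), CCNB2 (1.48 ± 0.19), ECT2 (1.27 ± 0.24), NUSAP1 (1.05 ± 0.38), CENPF (0.92 ± 0.27) and CKAP2, a spindle protein (0.91 ± 0.20). Without pregnant day 18 animal 2 the CENPF rise was 0.49, and the NUSAP1 call was lost without that animal or pregnant day 15 animal 3. CKAP2 had 0.16 and was not called with the mean over probe sets, and one of its other probe sets fell (−0.49, adjusted p = 0.000131). MCM3, MCM4, MCM5 and MCM7 rose by 0.40 to 0.54, and RRM1 (−0.39 ± 0.10) and PCNA (−0.26 ± 0.06) fell. MCM3, however, fell at its other, dimmer probe set (mean 5.35), by −0.49 (adjusted p = 0.000307). Its rise also missed the threshold without pregnant day 15 animal 3 (adjusted p = 0.0591) and with only the groups compared. AURKB, MAD2L1 and MCM6 were called in none of the 16 comparisons at the probe set used here, with centred group means from 0.11 to 0.40, from −0.63 to 0.82 and from 0.81 to 2.04. A second AURKB probe set (mean 4.23) did rise to day 18, by 0.44 from day 15 (adjusted p = 0.00865) and 0.44 from day 12 (adjusted p = 0.00261) in pregnant animals and by 0.33 from day 12 in cyclic ones (adjusted p = 0.0212).

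In cyclic animals from day 12 to day 18, 11 of 35 rose and 1 fell (28.3% and 29% of all probe sets). From day 12 to day 15, 9 rose and 2 fell (39.4% and 19.1%), and from day 15 to day 18, 5 rose and 3 fell (16.7% and 32.8%). The rises from day 12 to day 18 were led by RRM2 (0.82 ± 0.32), RRM1 (0.79 ± 0.09), CDK1 (0.64 ± 0.23), UBE2C (0.60 ± 0.25), BUB1 (0.59 ± 0.21) and MCM7 (0.57 ± 0.09). Leaving out 1 array ended the call for UBE2C in 7 of 9 fits, for RRM2 in 5 and for CDK1 in 3, and quantile normalisation ended it for UBE2C, RRM2 and BUB1, whereas RRM1 and MCM7 passed throughout. Some other probe sets changed in cyclic animals where the ones used here were not called. A KIF20A probe set (mean 4.60) rose by 1.49 from day 12 to day 18 (adjusted p = 9.09e-10). A CDC6 probe set (mean 3.31) had 0.98 from day 12 to day 15 and −0.84 from day 15 to day 18. An HMMR probe set (mean 3.26) had −0.93 from day 15 to day 18. In pregnant animals from day 12 to day 15, 6 rose and 5 fell (39% and 21.3%), against the 9 and 2 in cyclic animals, and no test compared the 2 series of counts. Those that rose were CCNB2 (1.01 ± 0.19), RRM1 (0.82 ± 0.09), CCNA2, NDC80, AURKA and PCNA, and those that fell were CCNB1 (−2.23 ± 0.34), CCNE2, CDK2, CKAP2 and TYMS. Leaving out 1 array ended the call for AURKA in 6 of 8 fits, NDC80 in 5, CKAP2 in 3 and CCNA2, CCNE2 and TYMS in 1 each. The other CKAP2 probe sets rose over these days, by 0.44 (adjusted p = 0.000687) and 0.42 (adjusted p = 0.000345). With the mean over probe sets the TYMS and AURKA calls were lost. Without cyclic day 15 animal 1 the cyclic counts that use day 15 were 7 (against day 12) and 5 (against day 18) in either direction, and without pregnant day 15 animal 3 the pregnant count from day 12 to day 15 was 7.

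**Figure D5:**
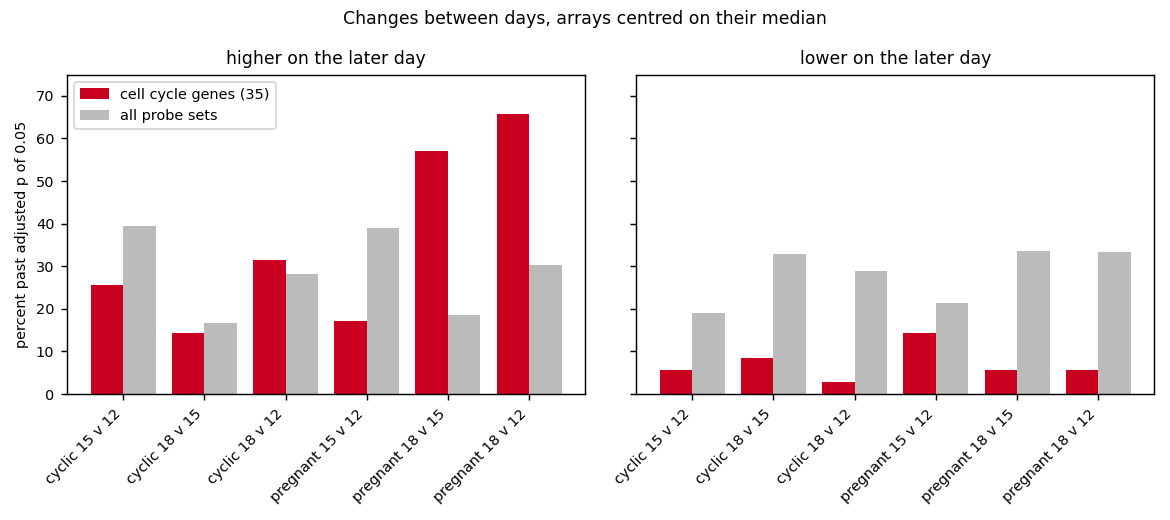
Percent of the 35 genes (red) and of all 24016 probe sets (grey) past an adjusted p of 0.05, higher (left) or lower (right) on the later day, for 6 comparisons between days. For pregnant day 18 against day 15 the red bar stands for 20 of 35 genes beside 18.5% of probe sets.

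CCNB1 fell across days in both pregnant and cyclic endometrium, against the direction of most of the other genes. It measured 9.74 to 10.80 in cyclic day 12 animals (median 10.33) and 9.68 to 10.77 in pregnant ones (median 9.80), against the day 15 and day 18 values given above. After centring, the fall from day 12 to day 18 was −2.47 ± 0.31 in cyclic animals (adjusted p = 1.04e-06) and −2.74 ± 0.31 in pregnant animals (adjusted p = 1.82e-07), and no array of the later day reached the earlier one in either. CCNB1 has 1 probe set on the array, as does CCNB2.

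The scaling of the arrays bears on the day comparisons. With quantile normalisation across days in place of centring, the calls from day 15 to day 18 in pregnant animals were 19 higher and 0 lower, while over all probe sets 5372 were higher and 5143 lower, against 4437 and 8102 with centring. From day 12 to day 18 in pregnant animals they were 18 higher and 2 lower, beside 6917 higher and 6937 lower over all probe sets. With the deposited values, 34 of 35 were higher and 0 lower from day 15 to day 18. PCNA, RRM1, CDK2, NDC80 and AURKA reversed direction in some day comparisons with the deposited values.

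The further lists moved in both directions from day 12 to day 18. Of the 41 spindle and kinetochore genes, 27 rose and 7 fell in pregnant animals (30.3% and 33.3% of all probe sets) and 24 rose and 5 fell in cyclic ones (28.3% and 29%). MELK (1.85 ± 0.19), SMC4, a condensin subunit (1.84 ± 0.11), and SPAG5 (1.43 ± 0.15) rose, and SPC24, a partner of NDC80, fell (−1.20 ± 0.14) in pregnant animals. Of the 35 replication genes, 17 rose and 7 fell in pregnant animals and 16 rose and 5 fell in cyclic ones, beside the same shares. In pregnant animals, UHRF1 (1.30) and GINS4, a helicase partner (1.25), rose, and RNASEH2A (−0.92) and POLE2 (−0.83) fell. Over the same days in pregnant animals CDKN1C (−0.51), CCND1 (−0.48), CCND2 (−0.36), ESR1 (−0.26) and IGF1 (−0.73) fell, MYC rose (0.52), and CDKN1A (0.06) and PGR (−0.07) did not pass.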

How the data were processed

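Total RNA of 33 heifers was hybridised to Affymetrix Bovine Genome arrays. The deposited table holds log2 expression levels that the authors computed by RMA (affy), according to the submitters' processing notes; versions and genome build are not given in the sources used here. Array medians differed between the biopsies and the days, so these sets were treated as normalised separately. Of 24128 probe sets, 112 controls were left out. The annotation gave 1 symbol to 13292, several to 86 and none to 10638, and 13263 were matched by gene identifier in RefSeq. limma 3.58.1 in R 4.3.3 (lmFit, eBayes, Benjamini-Hochberg over 24016 probe sets, two-sided, 16 comparisons, 1 mean per group) was fitted to the 9 biopsy arrays, the 24 slaughter arrays, or all 33, and checked on simulated data. Summed marker levels are log2 of the summed linear levels of the markers measured. Alternatives were quantile normalisation, centring, fewer arrays in the fit, array weights, the replicate number as a block, the mean over probe sets, a minimum mean of 5, the GAPDH difference as a covariate in the biopsies, and each array left out. The members and lists were chosen with earlier results of these data known. Named from other lists were at most 4 called genes per list and comparison with the largest differences, and 8 fixed regulators (CDKN1A, CDKN1C, CCND1, CCND2, MYC, ESR1, PGR, IGF1). The number of arrays limits the precision, and no label ties arrays to batches.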

Additional observations from a re-analysis of the deposited data

Results flagged for a closer look

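Among groups of 4 or 5 animals, 144 sets of values were tested: each of the 35 genes, and their median, in each group. In 15 sets 1 animal lay far from the others, where chance gives about 1 in 20 if sets are independent. Genes of 1 animal share its array, so these sets were not independent. Of the 15 flagged sets, 8 were in the pregnant group of day 18. The high values there were RRM2 at 7.74, CDK2 at 7.81, NDC80 at 4.65, CENPF at 6.64, NUSAP1 at 6.25, ECT2 at 7.24 and CKAP2 at 7.85, all in animal 2, and the low value was RRM1 at 10.82 in animal 3.

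In cyclic day 18 animals, CCNB1 stood high at 9.32 in animal 2, KIF20A stood apart at 5.28 and PCNA stood low at 9.35. On day 12, CDK1 at 6.06, PLK1 at 7.02 and TPX2 at 6.44 stood apart in the cyclic group and MAD2L1 at 7.75 in the pregnant group.

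The pregnancy effect on CCNB2 differed between days and between experiments by a test of the difference itself. It was larger on day 18 than on day 15 by 1.58, and the interferon effect over placebo minus the day 18 pregnancy effect was −1.49. Both calls were lost with only the groups compared in the fit (adjusted p = 0.1002 and 0.231), and the difference between days also in 2 of 14 fits that left out 1 array.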

How the results depend on the processing

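Counts of called genes out of 35 depended on the fit in some comparisons. For each, the counts under alternatives that moved it follow, then the range when each array was left out. IFNA against PBS gave 1 with only the groups compared, 2 with array weights and 1 with the GAPDH covariate. Pregnant against cyclic on day 15 gave 0 with only the groups compared (leave-one-out 0 to 2), and on day 18 it gave 3 (3 to 8). The change of the pregnancy effect gave 1 with only the groups compared for day 12 to 15 (0 to 1), and 0 with only the groups compared or without dim probe sets for day 15 to 18 (0 to 1). Without dim probe sets CCNB2 itself was not tested. Cyclic day 15 against day 12 gave 7 with quantile normalisation, 17 with only the groups compared and 6 without dim probe sets (7 to 11). Cyclic day 18 against day 15 gave 5, 31 and 13 with quantile normalisation, deposited values and only the groups compared (5 to 9). With deposited values, cyclic day 18 against day 12 gave 32, pregnant day 15 against day 12 gave 20 (7 to 12) and pregnant day 18 against day 15 gave 34. Deposited values keep the differences in array medians between days, and the share of all probe sets is not given for them here. Pregnant day 18 against day 12 gave 16 without dim probe sets. The interferon effect minus the day 15 pregnancy effect gave 1 with array weights, and minus the day 18 effect 0 with only the groups compared or without dim probe sets (1 to 4).

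With deposited values in place of centred ones, directions reversed for PCNA (cyclic day 15 against 12, −0.029; cyclic day 18 against 15, 0.34; pregnant day 15 against 12, −0.11; pregnant day 18 against 15, 0.49), NDC80 (cyclic day 18 against 15, 0.19), AURKA (pregnant day 15 against 12, −0.077), RRM1 (pregnant day 18 against 15, 0.36) and CDK2 (pregnant day 18 against 12, 0.15). With the mean over probe sets, CKAP2 (pregnant day 15 against 12, 0.11) and MCM3 (pregnant day 18 against 15, −0.043) reversed.

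Replicate numbers were not treated as pairs: over 21 pairs of equal number the correlation of deviations ran from −0.34 to 0.37. It ran from 0.03 to 0.20 on day 12 and from 0.02 to 0.15 on day 15. With so few arrays per group, this check cannot exclude pairing. The replicate block gave 2 called genes for pregnant against cyclic on day 15, 4 on day 18, and 22 and 25 for pregnant day 18 against days 15 and 12. The cause of these moves was not tested.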

Other observations

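The cell cycle genes were higher in the day 16 biopsies than in slaughter tissue, in values centred on each array's median. The mean of the biopsy groups exceeded that of the slaughter groups for 32 of 35 genes, with a median difference of 0.73, beside 0.31 for all genes, of which 68.4% were higher. The largest differences were RRM2 (1.90), CENPF (1.75), BUB1B (1.63) and NUSAP1 (1.57), and PLK1 (−0.86), MCM4 (−0.45) and MCM5 (−0.11) lay the other way. Only PCNA had every biopsy above every slaughter array (2.84 to 3.35 against 2.10 to 2.66), beside 17.7% of all genes. Biopsy and slaughter differ in day, part of the horn, collection and GAPDH 3′ to 5′ difference, which cannot be told apart here.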
